A study of Mus musculus with 8 samples.

Results

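Tissue residency genes were measured in the CD8+ T cells of subcutaneous MC38-OVA tumours grown in Pglyrp1 knockout (KO) mice and wild-type (WT) mice. The genes were chosen by name as factors and markers of tissue-resident T cells, namely Cxcr6, Cd69, Runx3, Qpct, Ahr, Hic1 and Zfp683. Of these 7 names, 6 matched rows of the deposited table of 20029 genes, and Zfp683 was not analysed here. The KO group (n = 4, libraries KO 1 to KO 4) was of strain B6.129S4-Pglyrp1tm1.1Lky/J and lacks Pglyrp1, while the WT group (n = 4, libraries WT 6 to WT 9) was C57BL/6J. All mice bore MC38-OVA, a mouse colon carcinoma line carrying the antigen ovalbumin. The labels give no age, and the design text counts 4 mice per genotype, so each library was taken as 1 mouse. The cells were sorted as living CD45+ TCRβ+ CD8 cells, a gate that also admits CD8+ T cells that entered the tumour recently.

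Tissue-resident memory T cells stay in an organ instead of returning to blood and lymph. Surface proteins are known to hold them there, such as CD69, which binds the egress receptor S1PR1 and takes it from the cell surface. Transcription factors such as Runx3, Hobit (encoded by Zfp683) and its relative Blimp-1 keep egress and homing genes such as Klf2, S1pr1 and Ccr7 low. CXCR6, the receptor for the chemokine CXCL16, retains resident and tumour-infiltrating CD8+ T cells near cells that present that ligand. The comparison of KO with WT asks whether these genes differ in tumour CD8+ T cells that lack Pglyrp1, a secreted protein that binds peptidoglycan.

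Values are TPM as the authors named the table, here the deposited scores rescaled to a sum of 1000000 per library. Pglyrp1 was listed at 0 in every KO library and averaged 173 ± 42.5 TPM in WT libraries (SD, n = 4). The summed TPM of 8 CD8+ T cell markers lay within 5626 to 6447 for KO and within 5847 to 7909 for WT libraries. Libraries stood apart within both groups. The summed TPM of 20 myeloid markers was 469, 369, 7928 and 10948 for KO 1 to KO 4, beside 246 to 1048 for the WT libraries. The summed TPM of 8 naive T cell markers was 407 to 1307 for the KO libraries, beside 2523, 486, 545 and 2440 for WT 6 to WT 9. KO 3 and KO 4 were therefore high in myeloid transcripts, and WT 6 and WT 9 in naive T cell transcripts, and fold changes without these pairs stand beside the results they move most. Ribosomal protein genes made up 36.8% and 36.4% of the TPM in WT 6 and WT 9, beside 20.4% to 29.8% in the other libraries. As every library sums to 1000000, a larger share of these genes leaves less for the rest.

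None of the 4 residency genes that could be tested, Cxcr6, Cd69, Runx3 and Qpct, passed in KO against WT (limma over 10732 genes, Benjamini-Hochberg adjusted p under 0.05), where 0.028% of all genes tested passed, 0.0186% higher and 0.00932% lower in KO. None of the 4 had groups that did not overlap, as 2.62% of all genes tested did with KO higher and 2.4% with KO lower. Ahr and Hic1 lay below the filter of at least 1 TPM in at least 4 libraries, so 4 of 6 measured genes were tested. In bulk RNA, fewer cells that express a gene and less of its RNA per cell cannot be told apart. The 6 genes lie on chromosomes 4, 6, 9, 11, 12 and 17, and none on chromosome 7, which holds Pglyrp1. Positions were looked up for these 6 genes only, not for the companion genes named below.

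The upstream sequences of Cxcr6 and Runx3 are shown because Runx3 is the most abundant transcription factor among the residency genes and both windows hold the RUNX motif. Promoters of Cxcr6, Runx3 and Hic1 were found in the RefSeq table (build GRCm38.p6). The 250 bases before each start site are printed 5′ to 3′ on the plus strand, in lower case, with matches to TGTGGT or its reverse complement ACCACA in capitals. The Cxcr6 window is chr9:123806227-123806476 and the Runx3 window, the upstream one of 2 listed, is chr4:135120395-135120644.
Cxcr6: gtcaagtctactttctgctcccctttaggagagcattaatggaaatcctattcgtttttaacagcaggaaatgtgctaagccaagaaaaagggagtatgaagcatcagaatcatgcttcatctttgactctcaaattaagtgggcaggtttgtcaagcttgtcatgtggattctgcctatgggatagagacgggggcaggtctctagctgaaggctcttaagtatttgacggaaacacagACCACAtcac
Runx3: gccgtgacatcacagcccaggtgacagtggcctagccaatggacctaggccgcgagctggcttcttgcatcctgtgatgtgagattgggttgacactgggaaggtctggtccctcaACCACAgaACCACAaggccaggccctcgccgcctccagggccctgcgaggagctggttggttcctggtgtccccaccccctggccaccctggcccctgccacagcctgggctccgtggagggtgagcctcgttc
The Cxcr6 window holds 1 match, which begins 10 bases before the start site. The Runx3 window holds 2, which begin 134 and 126 bases before it. The motif is present in 14.0% of 32851 such windows of all genes, and the second Runx3 window and both Hic1 windows hold none. The core GCGTG bound by AHR with its partner ARNT occurs in both Hic1 windows, with 2 matches in one and 1 in the other, beside 28.2% of all windows. The AP-1 motif TGACTCA and the Blimp-1 core GTGAAAG are in none of the 5 windows, and in 4.46% and 3.57% of all windows. The HIC1 core GGGCA, or its reverse complement TGCCC, has 2 matches in the Cxcr6 window, 1 in the second Runx3 window and 3 in 1 Hic1 window. It occurs in 47.7% of all windows. None of these motifs was searched for outside the windows, and a match is a description of the letters only.

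Cxcr6 (chromosome 9, 123806475 to 123811760) was the most abundant residency gene. It was at 622, 703, 659 and 841 TPM across KO 1 to KO 4, against 298, 1447, 1067 and 256 TPM across WT 6 to WT 9. The KO libraries were close together and all lay inside the WT range, between the low pair WT 6 and WT 9 and the high pair WT 7 and WT 8. The mean was 706 ± 95.6 TPM in KO and 767 ± 587 TPM in WT cells (SD, n = 4 each), and the highest library was 1.35 times the lowest in KO and 5.66 times the lowest in WT. The log2 fold change was 0.26 (SE 0.52, 95% interval -0.91 to 1.43, limma adjusted p = 0.912; two-sided exact permutation p = 0.686). Its sign depended on which WT libraries were kept. Without WT 6 and WT 9, the pair low in Cxcr6, the log2 fold change was -0.82 (limma adjusted p = 0.365). Without WT 7 and WT 8, the pair high in Cxcr6, it was 1.34, in a setting added after the values were seen. Each choice removes 1 end of the WT range, so neither value corrects the estimate. With the naive T cell markers as a covariate the log2 fold change was -0.25. All KO values inside the WT range were seen for 24.1% of genes tested.

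**Figure D1:**
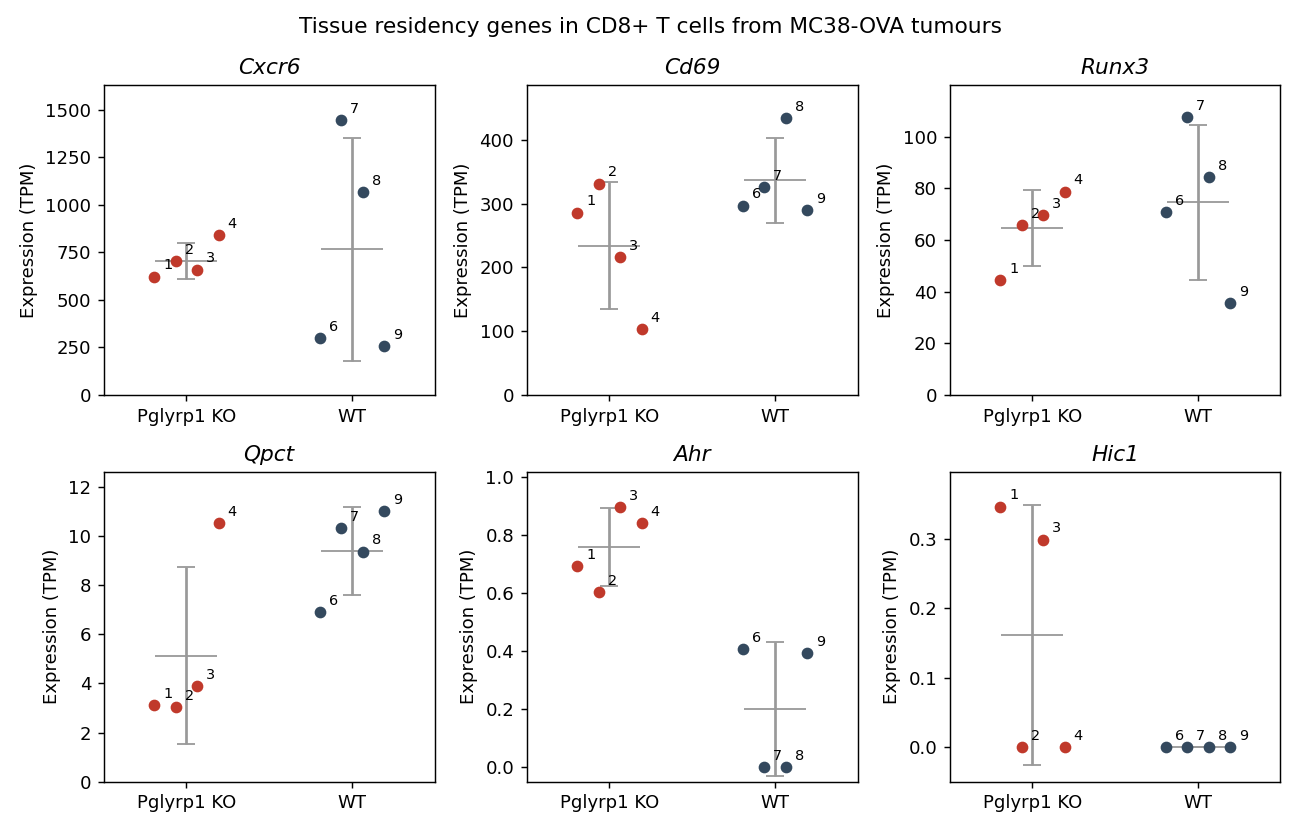
Expression of 6 tissue residency genes in TPM (vertical axes, linear, each with its own scale) in Pglyrp1 KO libraries (red, left) and WT libraries (dark, right). Points are single libraries with their numbers, and grey bars give the mean ± SD (n = 4). Cxcr6 in WT falls into a pair near 256 to 298 TPM and a pair at 1067 to 1447 TPM, with all KO libraries between them, and Qpct in KO 4 (10.5 TPM) sits with the WT libraries.

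The ligand of CXCR6 followed the myeloid-high libraries. Cxcl16, which encodes that ligand, was at 4.50, 0.605, 28.4 and 56.4 TPM across KO 1 to KO 4, against 0.406, 0.900, 1.74 and 2.75 TPM across WT 6 to WT 9 (log2 fold change 2.27, SE 0.99, limma adjusted p = 0.537). KO 3 and KO 4, whose myeloid marker sums are given above, held the 2 highest values. Without them the log2 fold change of Cxcl16 was 0.38, and with the myeloid markers as a covariate 0.12. Adam10 and Adam17, the proteases that shed CXCL16, averaged 45.7 ± 5.71 and 42.8 ± 9.22 TPM in KO, and 37.3 ± 8.79 and 31.8 ± 6.13 TPM in WT libraries (SD, n = 4). Of 8 genes tested in the list of CXCR6 ligand, sheddases and other T cell chemokine receptors, 7 had a positive fold change, 0 passed, and the list median was 0.47, beside 0.04 over all genes tested. Without WT 6 and WT 9 that median was -0.18, and without both pairs -0.095. Ccr2, an inflammatory chemokine receptor, shared the WT split of Cxcr6. It was at 112, 113, 103 and 180.1 TPM across KO 1 to KO 4, against 37.8, 197, 227 and 21.6 TPM across WT 6 to WT 9. In 6 of the 8 genes WT 6 and WT 9 were both below WT 7 and WT 8, as in 39% of genes tested.

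Cd69 (chromosome 6, 129267325 to 129275436), an early activation antigen and the commonest marker of residency, was at 286, 331, 216 and 104 TPM across KO 1 to KO 4, against 297, 326, 434 and 290 TPM across WT 6 to WT 9. KO 2 lay inside the WT range, KO 1 just below it and KO 3 further below, and KO 4 was the lowest of all 8, as it was for 9.74% of genes tested. The mean was 234 ± 99.2 TPM in KO and 337 ± 66.6 TPM in WT cells (SD, n = 4), a log2 fold change of -0.63 (SE 0.33, 95% interval -1.37 to 0.11, limma adjusted p = 0.597; exact permutation p = 0.171). It was -0.28 without KO 4 and -0.11 without KO 3 and KO 4. Both libraries were below all others for Cd69. Leaving them out removes the low end of the KO range, so neither value corrects the estimate. With the myeloid markers as a covariate the log2 fold change was -0.02. WT 6 and WT 9 were the lower WT pair for Cd69 as for Cxcr6, but the gap to the next library was small, 297 TPM in WT 6 beside 326 TPM in WT 7.

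The receptor that CD69 opposes and its driver are themselves on the list of naive T cell markers by which WT 6 and WT 9 are described. S1pr1, the sphingosine 1-phosphate receptor for exit from tissue, was at 124, 75.0, 61.6 and 42.9 TPM across KO 1 to KO 4, against 168, 51.3, 95.8 and 168 TPM across WT 6 to WT 9 (log2 fold change -0.62, SE 0.42, limma adjusted p = 0.681). Klf2, the factor that drives S1pr1, was at 10.7, 8.46, 9.57 and 7.57 TPM across KO 1 to KO 4, against 22.4, 5.85, 10.4 and 24.8 TPM across WT 6 to WT 9 (log2 fold change -0.56, limma adjusted p = 0.692). Both were highest in WT 6 and WT 9, and without that pair of WT libraries the log2 fold changes were 0.0080 for S1pr1 and 0.18 for Klf2. S1pr4, a second receptor of this family in lymphocytes, averaged 128 ± 31.0 TPM in KO and 164 ± 26.2 TPM in WT libraries, and Sgpl1, the lyase that breaks down sphingosine 1-phosphate, 46.2 ± 16.3 and 31.8 ± 11.1 TPM (SD, n = 4). The log2 fold change of Sgpl1 was 0.52, and 0.082 without KO 3 and KO 4. Of the 8 genes of the axis that were tested, 4 had a positive and 4 a negative fold change, and 0 passed.

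Runx3 (chromosome 4, 135120652 to 135177990), the RUNX factor that specifies the CD8 lineage and residency, was at 44.4, 65.6, 69.7 and 78.7 TPM across KO 1 to KO 4, against 70.7, 108, 84.4 and 35.4 TPM across WT 6 to WT 9. The lowest and the highest library were both WT, and the KO values lay between them. The mean was 64.6 ± 14.6 TPM in KO and 74.5 ± 30.2 TPM in WT cells (SD, n = 4), a log2 fold change of -0.13 (SE 0.32, 95% interval -0.85 to 0.60, limma adjusted p = 0.934; exact permutation p = 0.714). Its sign was positive when values were taken relative to CD8+ T cell markers (0.028), and the estimate was -0.58 without WT 6 and WT 9.

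The other RUNX genes differed in how they varied. Runx2 was at 28.8, 46.0, 60.4 and 47.6 TPM across KO 1 to KO 4, against 17.5, 73.3, 75.7 and 14.2 TPM across WT 6 to WT 9, the same WT pairs as Cxcr6. Runx1 averaged 6.02 ± 1.33 TPM in KO and 7.33 ± 1.60 TPM in WT libraries, and Cbfb, the shared DNA-binding partner of all RUNX factors, 11.5 ± 2.66 and 8.54 ± 1.89 TPM (SD, n = 4). Of 10 RUNX partners and targets tested, 7 had a positive fold change and 0 passed. The list median was 0.36, and -0.24 without WT 6 and WT 9. Prf1, the perforin gene, which RUNX3 activates, was at 380, 720, 953 and 1031 TPM across KO 1 to KO 4, against 129, 250, 305 and 272 TPM across WT 6 to WT 9 (log2 fold change 1.66, SE 0.36, limma adjusted p = 0.306), so the groups did not overlap. KO 3 and KO 4 again held the highest values, and the log2 fold change of Prf1 was 0.92 to 1.96 over the 25 alternatives. The part of other cells in the Prf1 values was not tested. Cd4, which RUNX3 silences in the CD8 lineage, was at 4.50, 4.84, 66.7 and 15.6 TPM across KO 1 to KO 4, against 1.22, 2.25, 0.695 and 0.393 TPM across WT 6 to WT 9 (limma adjusted p = 0.395). Its 2 highest values were in KO 3 and KO 4, the myeloid-high libraries, and its log2 fold change of 2.76 was 1.48 without them.

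Qpct (chromosome 17, 79051906 to 79090378) encodes glutaminyl cyclase, an enzyme that converts the first glutamine of secreted proteins to pyroglutamate, and its transcript is part of residency signatures. It was at 3.12, 3.02, 3.89 and 10.5 TPM across KO 1 to KO 4, against 6.91, 10.3, 9.38 and 11.01 TPM across WT 6 to WT 9. KO 1, KO 2 and KO 3 were below every WT library and KO 4 was above 3 of the 4. The mean was 5.14 ± 3.61 TPM in KO and 9.41 ± 1.80 TPM in WT cells (SD, n = 4), a log2 fold change of -0.90 (SE 0.35, 95% interval -1.69 to -0.10, limma adjusted p = 0.511; exact permutation p = 0.114). Qpct was the one of the 4 genes tested with an unadjusted limma p under 0.05 (0.0309), where 3.07% of all genes tested were lower and 6.01% higher in KO at that level. KO 4, the library with the highest myeloid marker sum, also held the highest KO value. Leaving it out removes that end of the KO range, so the result does not correct the estimate. Without KO 4 the log2 fold change was -1.25 (limma adjusted p = 0.503). It was -1.46 with the myeloid covariate (limma adjusted p = 0.9997). KO 3, also high in myeloid markers, was at 3.89 TPM, near KO 1 and KO 2.

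Its paralog had a smaller difference with no overlap. Qpctl, the Golgi glutaminyl cyclase that modifies CD47, was at 5.89, 4.53, 4.49 and 6.31 TPM across KO 1 to KO 4, against 9.75, 8.996, 8.33 and 6.69 TPM across WT 6 to WT 9 (log2 fold change -0.58, SE 0.21, limma adjusted p = 0.497). Its exact permutation p was 0.0286, which is the smallest value that 70 assignments allow. The position of Qpctl relative to the Pglyrp1 locus was not examined, so an effect of linkage to that locus cannot be told apart. Cd47 itself averaged 509 ± 45.9 TPM in KO and 501 ± 178 TPM in WT libraries. The chemokines Ccl2 and Ccl7, which carry the amino-terminal pyroglutamate, followed the myeloid-high libraries. Ccl2 was at 23.2, 4.84, 118 and 363 TPM across KO 1 to KO 4, against 0, 2.70, 0 and 9.05 TPM across WT 6 to WT 9 (limma adjusted p = 0.398). Ccl7 was at 25.6, 0, 58.6 and 166 TPM across KO 1 to KO 4, against 0, 2.70, 0 and 0 TPM across WT 6 to WT 9 (limma adjusted p = 0.472). Ccl7 passed when KO 2, the only KO library at 0, was left out (log2 fold change 5.53, limma adjusted p = 0.0400). Leaving out KO 2 removes the lowest KO value, so that p is no evidence. Without KO 3 and KO 4 the log2 fold change was 1.90 for Ccl7 and 2.27 for Ccl2. Of 7 genes tested in this list, 6 had a positive fold change and 0 passed, and in 4 both KO 3 and KO 4 exceeded the 6 others, as in 14.2% of all genes tested. The list median was 1.86 with all libraries and 0.46 without KO 3 and KO 4.

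Ahr (chromosome 12, 35497974 to 35535038), the aryl hydrocarbon receptor, a ligand-activated factor needed by skin-resident T cells, was listed near the limit of the table. It was at 0.693, 0.605, 0.897 and 0.842 TPM across KO 1 to KO 4, against 0.406, 0, 0 and 0.393 TPM across WT 6 to WT 9. In the deposited whole numbers these are 2, 2, 3 and 2 units for KO 1 to KO 4, against 1, 0, 0 and 1 units for WT 6 to WT 9. The KO values were all above the WT values (exact permutation p = 0.0286 over the 8 libraries, unadjusted, the smallest possible), as for 0.636% of the 6293 genes that were above 0 somewhere but failed the filter. A gene at 0 in any KO library cannot be among them, so this share is no measure of rarity. Among genes tested the share was 2.62%. With no filter, limma gave a p of 0.0193 and an adjusted p of 0.608 over 17025 genes (log2 difference 0.57, SE 0.20). A difference of 1 or 2 rounded units separates the groups.

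No tested gene of the AHR pathway separated the groups. Arnt, the partner of AHR, averaged 17.0 ± 2.25 TPM in KO and 16.5 ± 3.44 TPM in WT libraries (SD, n = 4; log2 fold change 0.05, limma adjusted p = 0.958). Tiparp, a widely induced AHR target, was at 9.01, 11.8, 18.8 and 18.5 TPM across KO 1 to KO 4, against 10.97, 13.5, 9.38 and 5.51 TPM across WT 6 to WT 9 (log2 fold change 0.52, SE 0.32, limma adjusted p = 0.644), with overlap, and its log2 fold change was 0.12 without KO 3 and KO 4. Cyp1b1, a classical target, was listed at 0 in all 8 libraries, and Ahrr, the AHR repressor and also a target, was listed at 0 in 7 and at 0.450 TPM in WT 7. Of the 5 genes of this list that were tested, 4 had a positive fold change, 0 passed, and the median was 0.05, near that of all genes tested.

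Hic1 (chromosome 11, 75164565 to 75169519), a zinc finger repressor induced by retinoic acid in intestinal lymphocytes, was at 0.347, 0, 0.299 and 0 TPM across KO 1 to KO 4 and listed at 0 in all WT libraries. The 2 values above 0 are 1 deposited unit each, so a difference was not detectable in these data. Several other genes of the retinoid pathway were listed at higher levels. Dhrs3, a retinaldehyde reductase induced by retinoic acid, was at 3.81, 2.42, 8.68 and 14.7 TPM across KO 1 to KO 4, against 0, 0.450, 1.04 and 1.18 TPM across WT 6 to WT 9 (log2 fold change 2.15, SE 0.50, limma adjusted p = 0.350). The groups did not overlap, the 2 highest values were again in KO 3 and KO 4, and the log2 fold change was 1.35 without them. Itga4, the alpha4 integrin subunit of gut homing, averaged 24.1 ± 8.24 TPM in KO and 12.4 ± 4.13 TPM in WT libraries (SD, n = 4; log2 fold change 0.89, or 0.47 without KO 3 and KO 4; limma adjusted p = 0.472). The receptor genes Rara, Rarb, Rarg, Rxra and Rxrb all had negative fold changes, from -0.91 for Rxra to -0.24 for Rara, and Itgb7, which pairs with Itga4, had -1.15. Of 9 retinoid genes tested, 3 had a positive and 6 a negative fold change, and 0 passed.

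The residency integrins ran in opposite directions over the WT libraries. Itgae encodes CD103, which binds E-cadherin and is present on naive CD8+ T cells as well as on resident ones, and Itga1 encodes CD49a, which binds collagen. Itgae was at 24.95, 10.9, 14.4 and 13.5 TPM across KO 1 to KO 4, against 50.4, 23.4, 20.1 and 60.6 TPM across WT 6 to WT 9 (log2 fold change -1.14, SE 0.38, limma adjusted p = 0.472; exact permutation p = 0.0857). Itga1 was at 6.24, 8.16, 10.5 and 12.6 TPM across KO 1 to KO 4, against 2.44, 28.3, 19.8 and 1.97 TPM across WT 6 to WT 9 (log2 fold change 0.18, SE 0.72, limma adjusted p = 0.958). Itgae was high in the naive-high pair WT 6 and WT 9, where Itga1 and Cxcr6 were low. The ratio of Itga1 to Itgae TPM ranged over 0.250 to 0.938 for KO, against 0.0484, 1.21, 0.983 and 0.0325 for WT 6 to WT 9. Without WT 6 and WT 9 the log2 fold change of Itgae was -0.49 and that of Itga1 was -1.29.

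Of 24 other residency genes, 23 were tested, 16 with a positive and 7 with a negative fold change, and 0 passed. The list median was 0.26, beside 0.04 over all genes tested, and 55.2% of all genes tested were positive. Without WT 6 and WT 9 the list median was -0.38. Prdm1, which encodes Blimp-1, was at 11.1, 13.9, 13.2 and 16.4 TPM across KO 1 to KO 4, against 2.44, 13.5, 9.38 and 4.72 TPM across WT 6 to WT 9 (log2 fold change 0.98, SE 0.41, limma adjusted p = 0.527). It was 0.24 without WT 6 and WT 9 and 0.13 without both pairs. Nr4a2, an orphan nuclear receptor that antigen signals induce, had the lowest p of the list (log2 fold change 2.22, SE 0.31, limma adjusted p = 0.101; 34.4 ± 9.04 TPM in KO and 6.72 ± 2.47 TPM in WT libraries, SD, n = 4). Its groups did not overlap. In 22 of 25 alternatives Nr4a2 did not pass (limma adjusted p up to 0.868). It passed relative to CD8+ T cell markers (limma adjusted p = 0.0497), as deposited (0.0287) and without WT 7 and WT 8. The first 2 of these settings moved the median of all genes tested to 0.20 and 0.27. Inpp4b, a phosphoinositide phosphatase listed with residency genes, was at 37.4, 31.4, 28.1 and 24.8 TPM across KO 1 to KO 4, against 40.6, 50.4, 37.9 and 49.2 TPM across WT 6 to WT 9 (log2 fold change -0.54, SE 0.17, limma adjusted p = 0.465), with no overlap, and had -0.36 without KO 3 and KO 4. In 16 of the 23 genes WT 6 and WT 9 were both below WT 7 and WT 8 (69.6%), as in 39% of all genes tested, and in 8 all KO values lay inside the WT range.

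**Figure D2:**
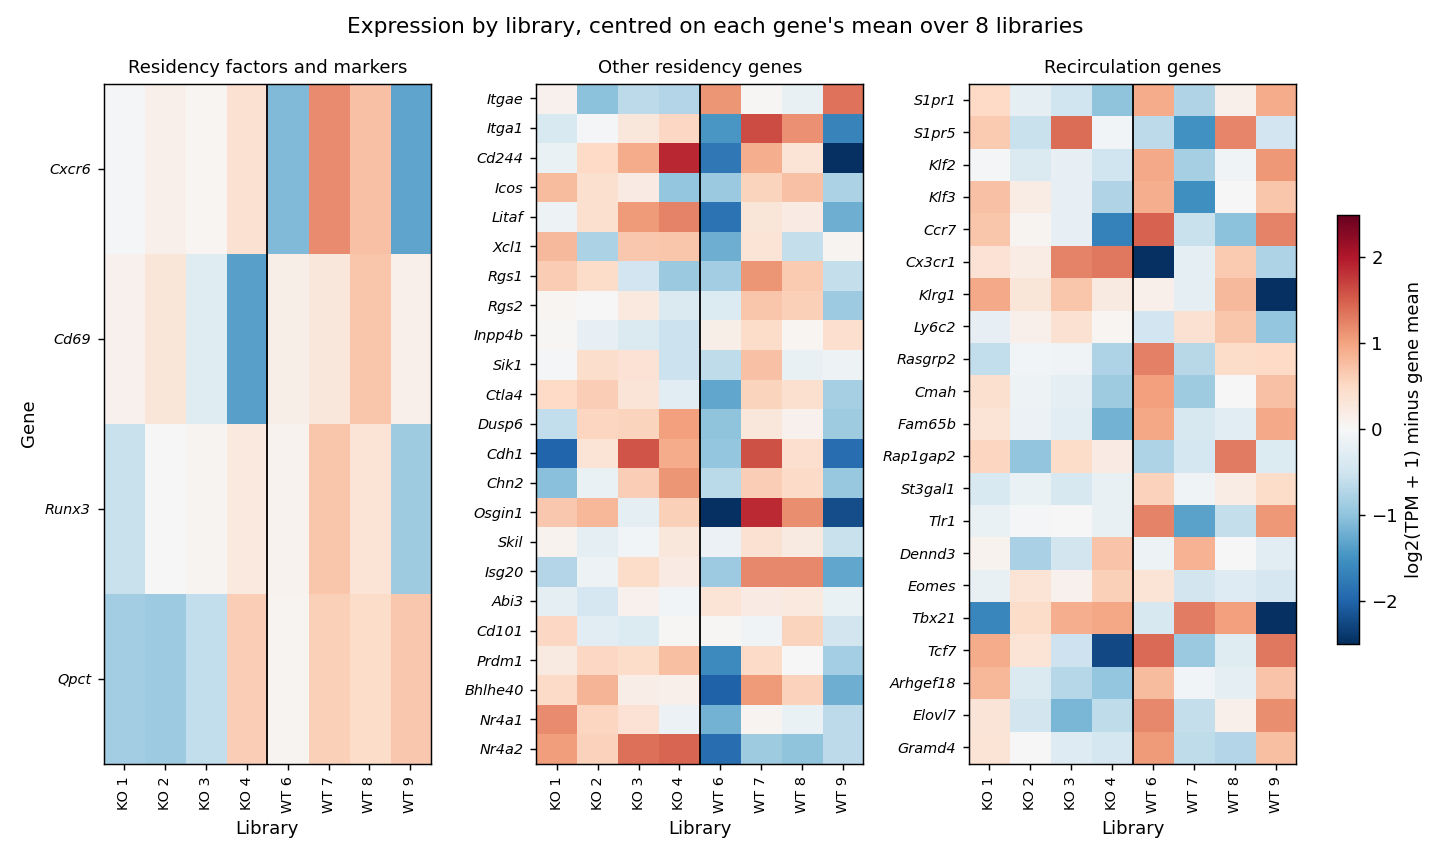
log2(TPM + 1) of each gene minus its mean over 8 libraries (colour scale, red above and blue below the gene mean) for the tested residency factors and markers, 23 other residency genes and the recirculation genes reported here. Columns are libraries, KO left of the black line and WT right. WT 6 and WT 9 are blue for Cxcr6 and most residency genes and red for most recirculation genes, while Cd69 is bluest in KO 4.

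Recirculation genes ran the other way within WT. All 22 genes listed were tested, 7 with a positive and 15 with a negative fold change, 0 passing, and the list median was -0.23. In 14 of the 22, WT 6 and WT 9 were both above WT 7 and WT 8, as in 17.2% of all genes tested. This list shares 5 genes with the naive T cell markers by which that pair is described, so its order in WT is no separate evidence. St3gal1, a sialyltransferase, averaged 8.59 ± 0.84 TPM in KO and 13.3 ± 2.85 TPM in WT libraries (log2 fold change -0.56, SE 0.20, limma adjusted p = 0.497), with no overlap, and its log2 fold change was -0.32 without WT 6 and WT 9. Cx3cr1, the fractalkine receptor of circulating effector cells, was at 25.3, 22.1, 47.0 and 50.1 TPM across KO 1 to KO 4, against 2.03, 16.2, 31.3 and 11.01 TPM across WT 6 to WT 9 (log2 fold change 1.55, SE 0.64, limma adjusted p = 0.527). The highest values of Cx3cr1 were in KO 3 and KO 4, the myeloid-high libraries. Its log2 fold change was 0.57 without WT 6 and WT 9 and 0.065 without both pairs. The median of the recirculation list was 0.20 without WT 6 and WT 9.

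TGF-beta is a cytokine that induces CD103 and represses Klf2. Of 9 genes tested in its pathway, 8 had a negative fold change and 0 passed. Smad7, an inhibitory SMAD, was at 5.54, 5.14, 6.58 and 3.79 TPM across KO 1 to KO 4, against 10.2, 7.65, 7.29 and 9.05 TPM across WT 6 to WT 9 (log2 fold change -0.62, SE 0.22, limma adjusted p = 0.497). Ski, a repressor of SMAD signalling, averaged 8.56 ± 1.63 TPM in KO and 15.02 ± 1.46 TPM in WT libraries (SD, n = 4; limma adjusted p = 0.395). Neither gene's groups overlapped. The list median was -0.42, beside 0.04 over all genes tested, of which 55.2% had a positive fold change. Over the 25 alternatives that median was -0.62 to -0.22. The list includes inhibitors such as Smad7 and Ski, so a shared sign gives no direction for the pathway.

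**Figure D3:**
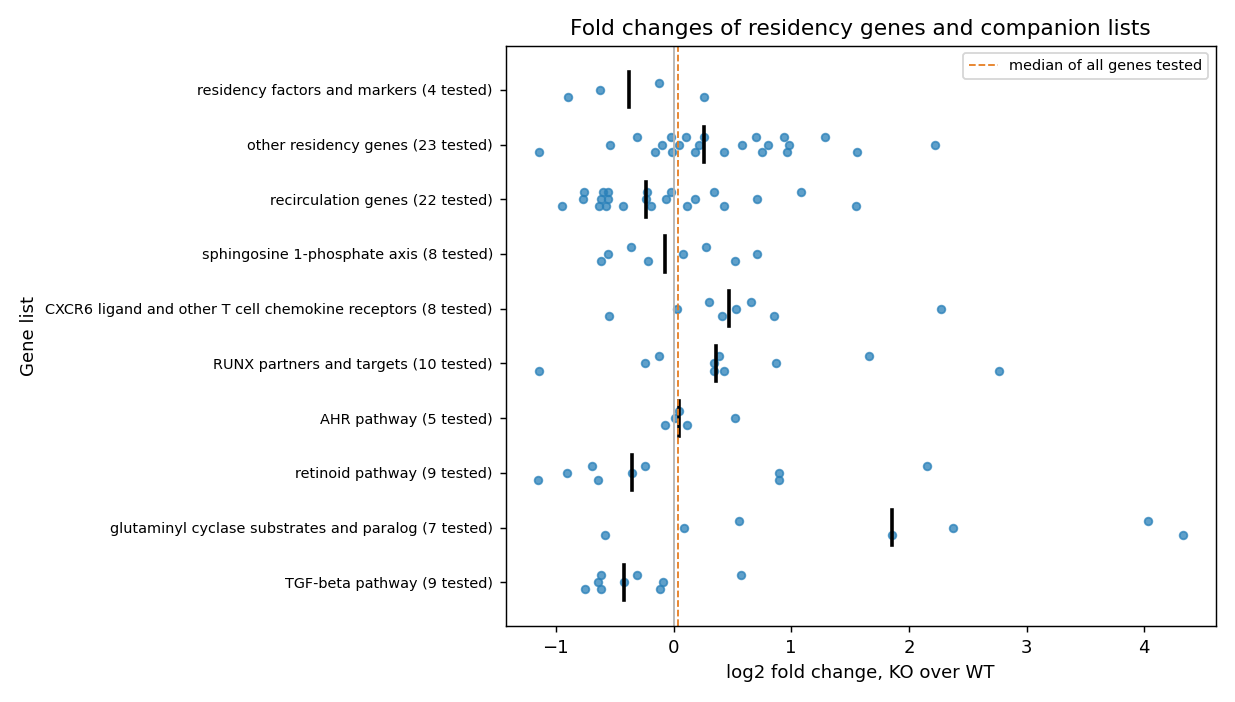
log2 fold changes of KO over WT (horizontal axis) for every tested gene of the residency factors and markers and of 9 companion lists. Points are genes, black bars are list medians and the orange dashed line is the median of all genes tested (0.04). No gene shown passed the adjusted threshold, and the widest spread is in the glutaminyl cyclase list, through Ccl2 and Ccl7.

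By level, the 6 genes kept nearly the same order in every library. The comparison holds per transcript length only as far as the authors' name TPM does, since no further scaling is stated. Cxcr6 exceeded Cd69 in 7 of 8 libraries, and the ratio of their TPM was 2.18, 2.12, 3.06 and 8.12 for KO 1 to KO 4, against 1.00, 4.44, 2.46 and 0.882 for WT 6 to WT 9. In KO libraries the 2 ranges did not overlap, and in WT libraries the range of Cxcr6 enclosed that of Cd69. Cd69 exceeded Runx3 in 8 of 8 libraries, by 1.32 to 8.19 times, though its lowest library (104 TPM) was under the highest of Runx3 (108 TPM). Runx3 exceeded Qpct in 8 of 8, by 3.21 to 21.7 times, with no overlap of their ranges. Qpct exceeded Ahr in each of the 6 libraries where Ahr was above 0, by 4.33 to 28 times. Mean TPM over the libraries placed Cxcr6 at percentile 98.2, Cd69 at 95.8, Runx3 at 84.0 and Qpct at 32.01 of the genes tested. Over the 4 tested genes, 1 had a positive and 3 a negative fold change, and their median was -0.38.

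The genes of nearest profile were different for each of the 4 tested residency genes. Likeness was the root mean square distance between centred log2(TPM + 1) profiles over 8 libraries, among 9901 named genes. Nearest to Cxcr6 were Wdr95 (0.17) and Sepn1 (0.22), beside a median of 0.80 over all genes. Wdr95 was at 16.6, 17.8, 15.9 and 24.0 TPM across KO 1 to KO 4, against 6.50, 32.8, 34.4 and 7.47 TPM across WT 6 to WT 9. Nearest to Cd69 were Pde7a (0.25) and Mettl20 (0.27), nearest to Runx3 were Adipor1 and Plagl2 (both 0.14), and near to Qpct was Tmem81 (0.26). These genes are named for their profile only.

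**Figure D4:**
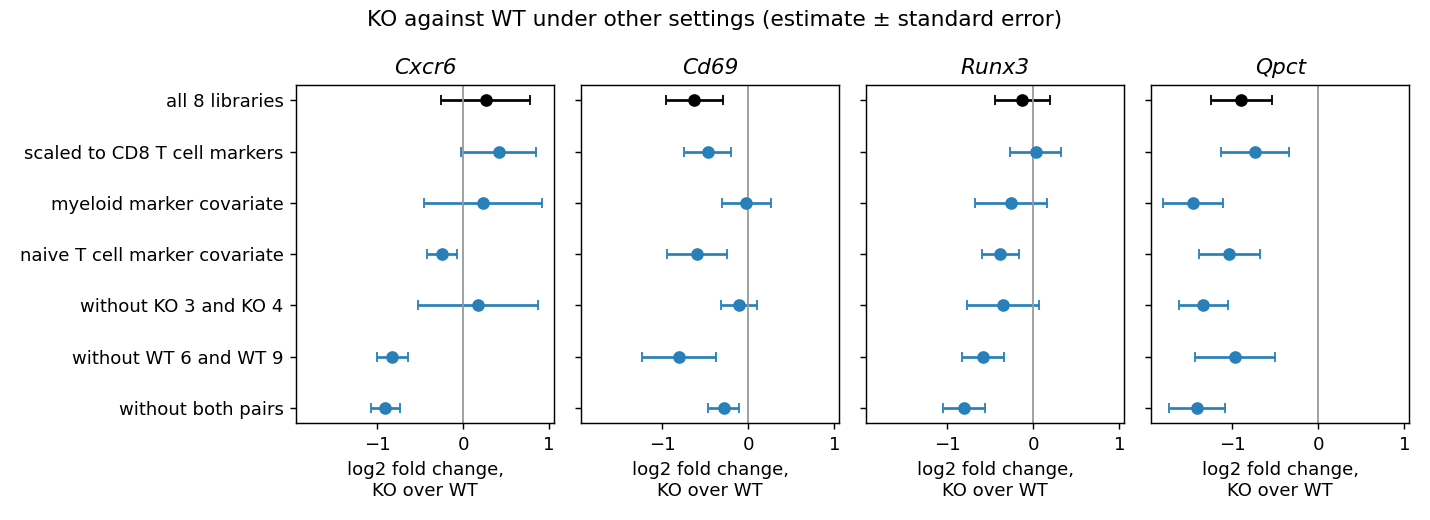
log2 fold change of KO over WT (horizontal axis) for Cxcr6, Cd69, Runx3 and Qpct with all 8 libraries (black) and under 6 other settings (blue); bars are ± 1 standard error. Qpct stays below 0 in each setting shown, Cxcr6 moves from 0.26 to -0.82 without WT 6 and WT 9, and Cd69 moves from -0.63 to -0.11 without KO 3 and KO 4. Without WT 7 and WT 8, a setting not shown, Cxcr6 was at 1.34.

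Markers of other cells that could pass with the sort differed between libraries. Of 16 myeloid markers tested, 14 were above the 6 other libraries in both KO 3 and KO 4. Markers of natural killer cells and innate lymphocytes, which can also carry residency genes, summed to 416, 416, 2504 and 2797 TPM for KO 1 to KO 4, beside 255 to 279 TPM for the WT libraries. Tyrobp, on both lists, was at 83.2, 84.9, 1280 and 1291 TPM across KO 1 to KO 4, against 23.3 to 40.6 TPM for the WT libraries. In KO 3 and KO 4 most of that sum came from Tyrobp and Fcer1g, a signalling pair shared with myeloid cells. Ncr1, which defines natural killer cells, was at 2.08, 0.907, 5.98 and 7.996 TPM across KO 1 to KO 4, against 0 to 1.18 TPM across WT. Of 12 natural killer and innate markers tested, 11 had a positive fold change and 0 passed. In 4 of them every KO library was above every WT library, as in 2.62% of all genes tested. Among the myeloid markers, C1qa, a macrophage complement gene, was listed at 0 in KO 1 and WT 6, and at 43.1 and 102 TPM in KO 3 and KO 4. CD4+ and regulatory T cell markers summed to 148 to 247 TPM for the KO libraries, beside 33.3 to 170.03 TPM for the WT libraries. B and plasma cell markers summed to 6.65 to 21.1 TPM for the KO libraries, beside 47.1, 8.55, 10.1 and 53.5 TPM across WT 6 to WT 9. Stromal, endothelial and tumour cell markers summed to 31.7 to 118 TPM for the KO libraries, beside 19.8 to 39.0 TPM for WT. Erythroid and platelet markers summed to 6.65 to 2103 TPM for the KO libraries, beside 3.60 to 849 TPM for WT. The part of these cells in the residency values was not tested beyond the settings given above.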

How the data were processed

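RNA was sequenced from sorted CD8+ T cells of 8 libraries, 4 KO and 4 WT, with a SMART-Seq2 and Nextera XT protocol, per the labels' protocols. The authors deposited 1 table of scores that they named a TPM-normalized count. These are whole numbers summing to 2223162 to 3342847 per library, so they are not TPM as deposited. Whether they are rounded counts is not stated, and if so the rescaled values carry no correction for transcript length. The tool RSEM 1.3.3 and the build mm10 come from the submitters' processing notes. Nothing used here states the aligner, annotation, scaling or rounding (not given in the sources used here). Depth is therefore unknown, and 1 deposited unit was worth 0.299 to 0.450 TPM once the values of a library were scaled to add up to 1000000.

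Tests used log2(TPM + 1), which understates the change of low genes, on 10732 genes that reached 1 TPM in 4 or more libraries. KO was compared with WT by limma 3.58.1 (R 4.3.3; moderated by empirical Bayes, trend on) with Benjamini-Hochberg adjustment over all genes tested at 0.05, the planned test kept after the unit proved to be a score. Single genes also had two-sided exact permutation tests over 70 assignments. The same fit was tested on simulated data. The residency genes, the lists and the settings were chosen with earlier results of these data known. Named besides the residency genes were the direct partners of each, the 2 genes of lowest p in each of 9 lists, the 2 genes of nearest profile and Pglyrp1; other genes named were chosen after their values were seen, and some genes that the rule names are not reported here. Of 191 list names, 185 matched the table, 3 by a synonym. Coordinates are from GENCODE M21 (GRCm38), 1-based, and promoters from RefSeq (GRCm38.p6). Python 3.11.15, pandas 2.3.3, numpy 2.4.6 and scipy 1.17.1 were used. The alternatives varied pseudocount, filter, scaling, limma options and covariates, and left out libraries.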

Additional observations from a re-analysis of the deposited data

Results flagged for a closer look

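Of 67 groups of 4 libraries examined for a lone distant value, over the residency genes and the other named genes, 4 were marked. Chance marks about 1 in 20 where values are normally distributed, which was not tested for these values. Qpct was at 10.5 TPM in KO 4, with the other KO libraries at 3.02 to 3.89 TPM. KO 4 also had the highest myeloid marker sum, while KO 3, also high in myeloid markers, was at 3.89 TPM. The part of myeloid transcripts in these values was not tested. Arnt was at 21.6 TPM in WT 9, with the other WT libraries at 14.4 to 15.4 TPM. In WT 7, Ccl7 was at 2.70 TPM and Ahrr at 0.450 TPM, while WT 6, WT 8 and WT 9 had 0 for both. Where all other libraries of a group are at 0, any value above 0 is marked, so these marks were fixed in advance.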

How the results depend on the processing

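No paired analysis was possible because no replicate number is shared between genotypes (KO 1 to KO 4, WT 6 to WT 9). Of 25 alternatives, the one that leaves out WT 7 and WT 8 was added after the values were seen, as the reverse of leaving out WT 6 and WT 9. WT 7 and WT 8 are high in Cxcr6 and WT 6 and WT 9 low, so a p from either setting is no evidence. Leaving out WT 7 and WT 8 gave 122 genes past the threshold and 1 residency gene, Cxcr6 at 1.34 (limma adjusted p = 0.0200). Runx3 was then at 0.33, Arnt at -0.11 and Ahr at 0.33, with medians of 1.06 for other residency genes and -1.04 for recirculation genes. In the other 24 settings 0 residency genes passed.

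Cd69 and Qpct stayed negative in all 25 settings (-0.84 to -0.02 and -1.46 to -0.56). Without WT 6 and WT 9, Cxcr6 was -0.82, Runx2 -0.74, Itga1 -1.29, S1pr1 0.0080, Klf2 0.18 and Ahr 0.81, with list medians of -0.82 for the residency genes, -0.38 for other residency genes and 0.20 for recirculation genes, and 5 genes past the threshold. Without both pairs, Cxcr6 was -0.91, Runx2 -1.01, Itga1 -1.60, Tiparp -0.12, Adam17 -0.030, Sgpl1 -0.34, S1pr1 0.46 and Klf2 0.25, with medians of -0.86, -0.33 and 0.36 and 10 genes past the threshold. Without KO 3 and KO 4, Arnt was -0.025 and Itga1 -0.13, with 5 genes past the threshold. With the naive covariate Cxcr6 was -0.25, Runx2 -0.17 and Itga1 -0.53, and with the myeloid covariate Arnt was -0.088 and Itga1 -0.057. Relative to CD8+ T cell markers, which moved the median of all genes to 0.20, Runx3 was 0.028 and 5 genes passed. In unscaled deposited values, with that median at 0.27, Runx3 was 0.10, Hic1 0.50 and Ahr 1.19. A pseudocount of 0.1 gave 1.04 for Hic1 and 1.93 for Ahr, and one of 5 gave 0.15 for Ahr and -0.022 for Itga1. Quantile normalization gave -0.019 for Arnt, and removal of ribosomal protein and abundant genes -0.079. The cause of these changes was not tested.

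With 1 library left out, the ranges were -0.14 to 0.69 for Cxcr6 (below 0 without WT 6 or WT 9), -0.44 to 0.083 for Runx3 (above 0 without KO 1 or WT 7), -0.34 to 0.76 for Itga1, -0.064 to 0.72 for Runx2 and -0.0072 to 0.18 for Arnt. They were 0.49 to 0.65 for Ahr, 0.13 to 0.27 for Hic1, 2 to 9 for genes past the threshold, -0.57 to -0.26 for the median of the residency genes, -0.01 to 0.76 for other residency genes and -0.61 to -0.12 for recirculation genes. Depth is unknown, which limits Ahr and Hic1 most.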
